A study of Mus musculus with 8 samples.

Results

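Cytoplasmic ribosomal protein genes were taken from the table of 23997 mouse genes by their symbols: Rps or Rpl followed by a number, p and a number, or a, with an optional letter a, x, l or y and further digits, and with the S6 kinases (Rps6k) and symbols holding -ps left out. The rule found 84 genes, 33 of the small subunit (Rps) and 51 of the large subunit (Rpl). Of these, 82 passed the filter on low values (33 Rps and 49 Rpl) and entered the tests beside 12565 genes in all; Rpl10l and Rpl39l did not pass. 7 members are paralogs whose symbols end in l or l1 (Rpl3l, Rpl7l1, Rpl10l, Rpl22l1, Rpl39l, Rps4l and Rps27l), and 77 are not. Rack1 (Gnb2l1) and Fau also supply ribosomal proteins but lie outside the rule.

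A cytoplasmic ribosome joins a small subunit, which reads the mRNA, to a large subunit, which forms the peptide bond. Their proteins are made in near-equal amounts from genes that most dividing cells express at very high levels, and many of their mRNAs begin with a C followed by a run of pyrimidines, the 5′ terminal oligopyrimidine (TOP) tract, through which growth signals set their translation. In blood formation, loss of a copy of some of these genes causes Diamond-Blackfan anemia, and loss of RPS14 is linked to the anemia of the 5q- syndrome.

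RNA was sequenced from leukemic bone marrow of C57BL/6 mice in 8 libraries and 3 groups. In all groups, donor marrow taken after 5-fluorouracil was cultured with IL3, IL6 and SCF, transduced, and given to lethally irradiated recipients, whose RNA was isolated once they succumbed to leukemia. AE+Meis2 (n = 3, median latency 171 days) carried AML1-ETO, the fusion of Runx1 with Runx1t1, together with the homeobox gene Meis2; AE9a+Meis2 (n = 3, 102 days) carried the truncated form AML1-ETO9a with Meis2; AE9a (n = 2, 138 days) carried AML1-ETO9a without added Meis2. No untransduced marrow is among the libraries, the marrow was not sorted as far as the labels say, and the labels do not tie a library to a donor or transduction, so p-values measure only the spread between these libraries. Levels are FPKM, in which fragment counts are divided by transcript length and by the size of the library; differences are on the log2(FPKM + 1) scale, and per-library values are given in the order of the replicate numbers.

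Some libraries stood apart. Runx1t1, part of the fusion, was listed at 21.6, 223 and 218 FPKM (AE+Meis2), 18.0, 11.2 and 10.3 (AE9a+Meis2) and 26.8 and 23.4 (AE9a), and Meis2 at 13.1, 38.2 and 81.5 FPKM (AE+Meis2), 621, 604 and 1277 (AE9a+Meis2) and 6.99 and 13.2 (AE9a). The library labelled AE+Meis2 replicate 1 therefore had both genes at the level of AE9a, against its label; medians, counts, lists and the main members' differences are given with and without it. Genes of 4 families that marrow should not express (Olfr, Vmn, Krtap and Defb, 1543 genes) were above 0 for 84.1% (AE9a+Meis2 replicate 3) and 72.1% (AE9a replicate 1) of them, against 3.37 to 6.61% in the other 6 libraries. Eif2s3y, on the Y chromosome, was high in 2 libraries, AE+Meis2 replicates 1 and 2 (158 and 176 FPKM, against 0.12 to 7.06 elsewhere). Xist, which female cells express, was at 1.93 and 5.79 FPKM in these libraries and at 82.4 to 206 elsewhere. Sex thus differed in part between AE+Meis2 and the other groups. In this the library labelled AE+Meis2 replicate 1 also differed from the AE9a libraries. Summed FPKM of 7 neutrophil markers ran from 1474 to 163765 in AE+Meis2, from 1525 to 56486 in AE9a+Meis2 and from 7141 to 28425 in AE9a (all of the AE+Meis2 libraries have S100a9, a defining marker, at 0); 8 RNA handling and stress genes summed to 97.9 to 2165, 869 to 1462 and 68.7 to 251 FPKM. Summed FPKM of 4 megakaryocyte markers ran from 12.8 to 350 in AE+Meis2, highest in replicate 2. In AE9a+Meis2 they ran from 11.6 to 15.9 and in AE9a from 17.1 to 23.2. Ppbp, 1 of these markers, was instead highest in AE9a (2.44 and 2.13 FPKM). The part of these differences in the results was not tested. Small RNA entries took 8.66 to 37.9% of the summed FPKM. All 6 myeloid progenitor markers, Kit, Mpo and Ptprc among them, were above 5 FPKM in every library.

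Sequences are shown for the start of 6 members, because the TOP tract is the feature the family is known for, and for Rps27 with its copies, because the readings of Rps27 turn on them. Windows run from 10 bases before the start annotated by RefSeq (GRCm38.p6) to 20 bases from it, on the transcribed strand, with the tract in capitals. The first 3 belong to members whose mean in AE+Meis2 was above that in AE9a+Meis2 under all 5 scalings tried, the next 2 to members below it under all 5, and the last to an anemia gene with a long tract. Rps24 has 2 annotated starts and Rpl35a has 3, and for each the only one with a tract is shown.
Rps24, chr14:24490668-24490697, plus strand: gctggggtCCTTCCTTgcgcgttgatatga
Rpl22l1, chr3:28805498-28805527, plus strand: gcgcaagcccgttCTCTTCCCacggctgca
Rpl13a, chr7:45128726-45128755, minus strand: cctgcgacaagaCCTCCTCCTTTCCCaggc
Rps26, chr10:128626487-128626516, minus strand: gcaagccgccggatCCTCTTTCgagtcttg
Rplp2, chr7:141447641-141447670, plus strand: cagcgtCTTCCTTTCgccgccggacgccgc
Rpl35a, chr16:33056472-33056501, plus strand: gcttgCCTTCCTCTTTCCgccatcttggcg
The tract was sought as a C followed by at least 4 C or T whose first base lay within 5 bases of an annotated start. RefSeq promoter windows (250 bases before the start and 50 from it) were at hand for 61 of the 82 tested members. A tract was found in 29 of them (47.5%), against 2216 of 9325 other tested genes (23.8%); it was in 12 of 24 small subunit genes and 17 of 37 large subunit genes. Among 68 mitochondrial ribosomal protein genes, which are not TOP genes, 17 (25%) held one. CCGGAA, the core bound by GABPA, was on either strand in 55.7% of the members and 31.2% of the other genes, and AANATGGC, the YY1 core, in 21.3% and 10.1%. GGGCGG, the SP1 core, was in 62.3% and 66.8%, and TATAAA in 11.5% and 8.54%.

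The ribosomal protein genes were among the most abundant transcripts of every library. Over the 8 libraries their median rank lay at the 99.1 to 99.5 percentile of the genes tested, and 35 to 59 of the 100 highest genes of a library were members. 69 members averaged above 500 FPKM. Among the small subunit genes without paralogs the median of the means was 1759.7 FPKM (range 100.02 to 3233), and among those of the large subunit 1347 FPKM (30.3 to 3282). The highest members were Rpl32 (3282 FPKM), Rps12 (3233), Rps18 (3029.7) and Rpl41 (2874), which encodes the smallest ribosomal protein. The lowest outside the paralogs were Rpl30 (30.3), Rpl26 (58.0), Rps27 (100.02), Rps15a (120) and Rpl22 (160). Each of these 5 shares stretches of 50 bases with between 4 and 64 other annotated genes. The shared part is 98.6% for Rps27, 71.3% for Rpl26 and 47.8% for Rpl30, so that their counting is uncertain. It is only 6.37% for Rps15a and 5.19% for Rpl22. High members can share as much, such as Rps18 (86.7%) and Rps12 (83.6%).

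Between the highest and the lowest library, 74 of the 82 tested members differed by less than 2-fold. The share of all genes was not computed, so this count says nothing particular of the family. The small subunit median was 1861, 1963 and 1855 FPKM (AE+Meis2), 1627, 1785 and 1376 (AE9a+Meis2) and 1594 and 1581 (AE9a), which is 1893 ± 60.6 (SD, n = 3), 1596 ± 206 (SD, n = 3) and 1587 ± 9.27 (SD, n = 2). All 3 AE+Meis2 libraries, with that labelled replicate 1, were above the other 5. The large subunit median was 1481, 1559 and 1310.4 FPKM (AE+Meis2), 1214, 1352 and 1126 (AE9a+Meis2) and 1234 and 1246 (AE9a), or 1450.1 ± 127, 1231 ± 114 and 1240 ± 8.79. Here AE+Meis2 replicate 3 lay below AE9a+Meis2 replicate 2, so these groups overlapped. The ratio of the small to the large subunit median stayed between 1.22 and 1.42. As a share of all FPKM without small RNA entries, the family made up 23.1, 24.9 and 14.0% (AE+Meis2), 20.9, 22.6 and 17.7 (AE9a+Meis2) and 23.8 and 20.7 (AE9a). That share was lowest in AE+Meis2 replicate 3, the library with the highest neutrophil sum. In bulk marrow, fewer cells of a type and less RNA per cell cannot be told apart.

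**Figure D1:**
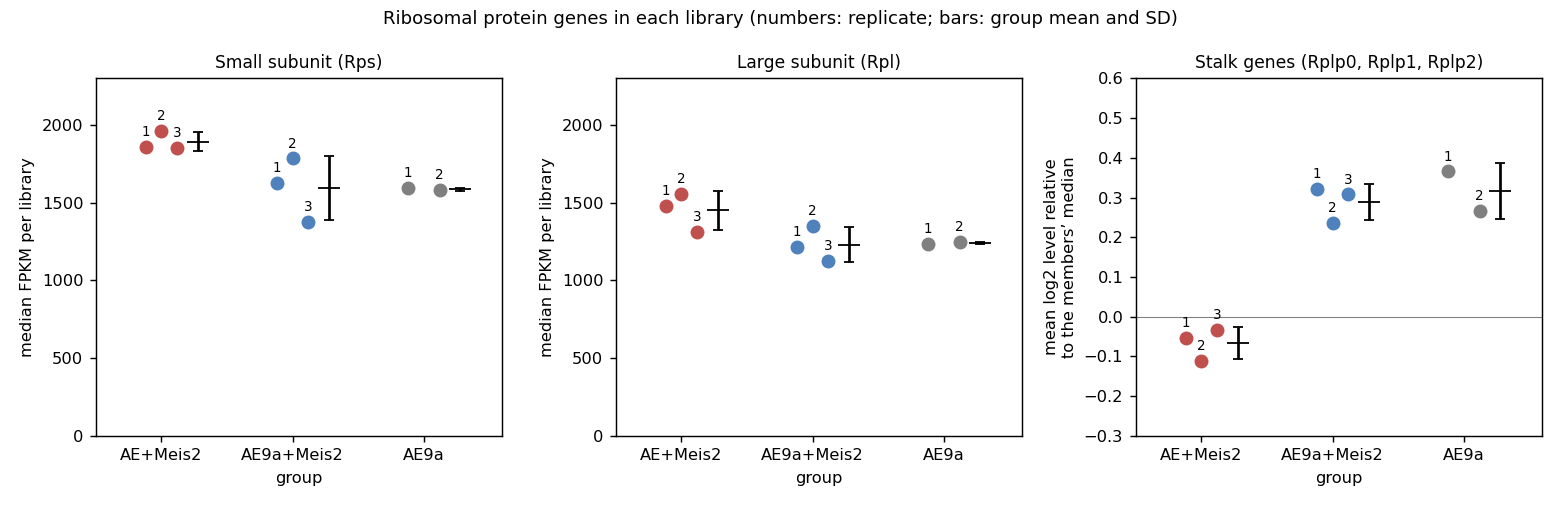
Median FPKM of the small and large subunit genes (members without paralogs) in each library, and the mean log2 level of the 3 stalk genes relative to the median of all tested members in the same library. Points are libraries, numbers are replicates, and bars give the group mean and SD. As deposited, the small subunit medians of AE+Meis2 (1855 to 1963 FPKM) lie above those of the other 5 libraries, an order that quantile scaling turns, and the relative stalk level of AE+Meis2 lies below the other 5, which no scaling by 1 factor per library can alter.

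AE+Meis2 against AE9a+Meis2 compares, by label, the full-length fusion with its truncated form, both with added Meis2. Meis2 itself was listed far lower in AE+Meis2 (13.1, 38.2 and 81.5 FPKM) than in AE9a+Meis2 (621, 604 and 1277). The form of the fusion and the level of Meis2 therefore cannot be told apart here. As deposited, 30 of 33 small subunit genes and 41 of 49 large subunit genes were higher in AE+Meis2, with median differences of 0.31 and 0.23, against 0.043 over all genes tested, of which 54.9% were higher; after quantile scaling the medians were -0.14 and -0.10. With small RNA entries removed and the rest rescaled, the medians were 0.048 and -0.029, while that of all genes moved to -0.20. Members thus had medians above that of all genes under the second of these scalings and below it under quantile scaling, which sets the levels of the highest genes equal between libraries. Leaving out the library labelled AE+Meis2 replicate 1 gave 0.30 and 0.20, and without AE9a+Meis2 replicate 3 and AE9a replicate 1 they were 0.21 and 0.14. The groups did not overlap for 30 members higher and 2 lower, against 7.00% and 6.49% of all genes. Under quantile scaling the counts were 1 higher and 15 lower, against 5.81% and 6.80%. With small RNA entries removed and the rest rescaled, 0 were higher and 4 lower, against 1.22% and 12.3% of the 12405 genes kept. Median-of-ratios scaling gave 23 higher and 3 lower (6.15% and 7.19% of all genes). Scaling each library to the median of all genes gave 16 and 2 (5.91% and 7.20%). No member was called by limma at an adjusted p of 0.05 (0.0398% of all genes were, in either direction). At an unadjusted p under 0.05, 8 members were higher and 0 lower, against 3.10% and 4.05% of all genes. That count changed with single libraries. It fell to 1 without the library labelled AE+Meis2 replicate 1 (4.28% of all genes were higher) and to 1 without AE+Meis2 replicate 2 (3.37%). It was 1 without AE9a+Meis2 replicate 1 (1.81%) and 0 without AE9a+Meis2 replicate 3 (1.92%). Without AE+Meis2 replicate 3 it was 9 (6.02%), and without AE9a+Meis2 replicate 2 it was 6 (1.76%). Quantile scaling gave 0 higher and 2 lower, against 2.93% and 4.40%. Robust moderation gave 20 higher, a filter of 5 FPKM in 3 libraries gave 15 and no filter gave 1. Shares of all genes were not computed for these last settings, so their counts cannot be read as a result about the members. Members without overlap numbered 32 higher and 4 lower when the library labelled AE+Meis2 replicate 1 was left out, against 13.8% and 11.9% of all genes. The number higher rose to 53 without AE+Meis2 replicate 3 (16.4% of all genes) and to 49 without AE9a+Meis2 replicate 2 (11.3%).

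**Figure D2:**
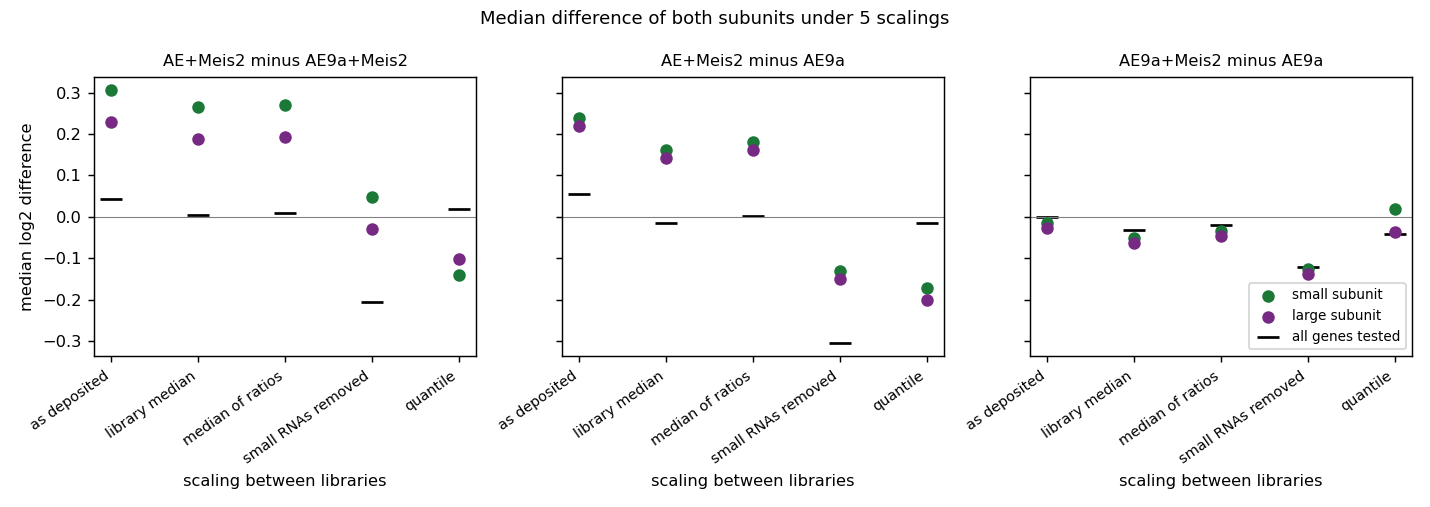
Median log2 difference of the small and large subunit genes and of all genes tested, for the 3 comparisons under 5 scalings between libraries (library median was added after the data were seen). The subunit medians of both AE+Meis2 comparisons lie between 0.14 and 0.31 under 3 scalings and turn to between -0.20 and -0.10 under quantile scaling.

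Among the small subunit genes, the differences from AE9a+Meis2 were widest for Rps27, Rps24 and Rps27a. Rps24, an anemia gene whose last exons are spliced in several ways, was listed at 2134, 2991 and 2157 FPKM (AE+Meis2), 1627, 1788 and 1382 (AE9a+Meis2) and 1953 and 1598 (AE9a). Every AE+Meis2 library was above the other 5, and the difference from AE9a+Meis2 was 0.59 ± 0.22 (SE; limma adjusted p = 0.673). Rps27a encodes a ribosomal protein fused to ubiquitin, which is cut free and adds to the ubiquitin pool. It was at 2434, 2546 and 2501 FPKM (AE+Meis2), 1766, 2052 and 1376 (AE9a+Meis2) and 1833 and 1813 (AE9a), again without overlap, a difference of 0.55 ± 0.21 (limma adjusted p = 0.673). Rps3, at the mRNA entry of the small subunit, was at 977, 957 and 921 FPKM (AE+Meis2), 723, 759.8 and 577 (AE9a+Meis2) and 635 and 656 (AE9a). The difference was 0.48 ± 0.17 (limma adjusted p = 0.658), and the groups did not overlap. Rps24, Rps27a and Rps3 were above AE9a+Meis2 under all 5 scalings, by at least 0.10 to 0.16. Their differences were 0.68, 0.56 and 0.46 when the library labelled AE+Meis2 replicate 1 was left out.

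At the lower end stood Rps26, Rps29 and Rps2. Rps26, an anemia gene whose protein lies where the mRNA leaves the small subunit, was at 1151, 985 and 1046 FPKM (AE+Meis2), 1142, 1387 and 1268 (AE9a+Meis2) and 1369.7 and 1295 (AE9a). AE+Meis2 held the lowest library and overlapped AE9a+Meis2 by 1 library, with a difference of -0.25 ± 0.17 (limma adjusted p = 0.792). Rps26 and Rps2 were lower in AE+Meis2 under all 5 scalings, as was Rps29. Leaving out the library labelled AE+Meis2 replicate 1 gave -0.31 for Rps26 and turned Rps29 to 0.032. Rps2 turned to 0.12 without AE+Meis2 replicate 3.

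For the large subunit the widest positive differences were those of Rpl36a, Rpl22l1 and Rpl12. Rpl36a was at 1704, 1850.5 and 1485 FPKM (AE+Meis2), 1099.6, 1319.8 and 979 (AE9a+Meis2) and 1364 and 1233 (AE9a). All 3 AE+Meis2 libraries were above the other 5, and the difference was 0.57 ± 0.20, with the smallest adjusted p of any member in limma (0.626). Rpl9, Rpl37a, Rpl22 and Rpl13a, the other large subunit genes with an unadjusted p under 0.05 (Rpl9, Rpl37a and Rpl13a were picked after their values were seen), differed by 0.42 to 0.47. Negative differences were widest for Rpl36, Rplp2 and Rpl8. Rpl36 was at 849, 718 and 686 FPKM (AE+Meis2), 948, 925 and 884 (AE9a+Meis2) and 1048 and 819 (AE9a), a difference of -0.30 ± 0.18 (limma adjusted p = 0.765), with AE+Meis2 below AE9a+Meis2 in every library. Rpl8, near the peptidyl transferase centre, was at 1409, 1558 and 1232 FPKM (AE+Meis2), 1460.2, 1779.8 and 1643 (AE9a+Meis2) and 1649 and 1355 (AE9a). Its groups overlapped (-0.22 ± 0.19). On leaving out the library labelled AE+Meis2 replicate 1, Rpl36a differed by 0.56, Rpl36 by -0.39 and Rplp2 by -0.15.

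**Figure D3:**
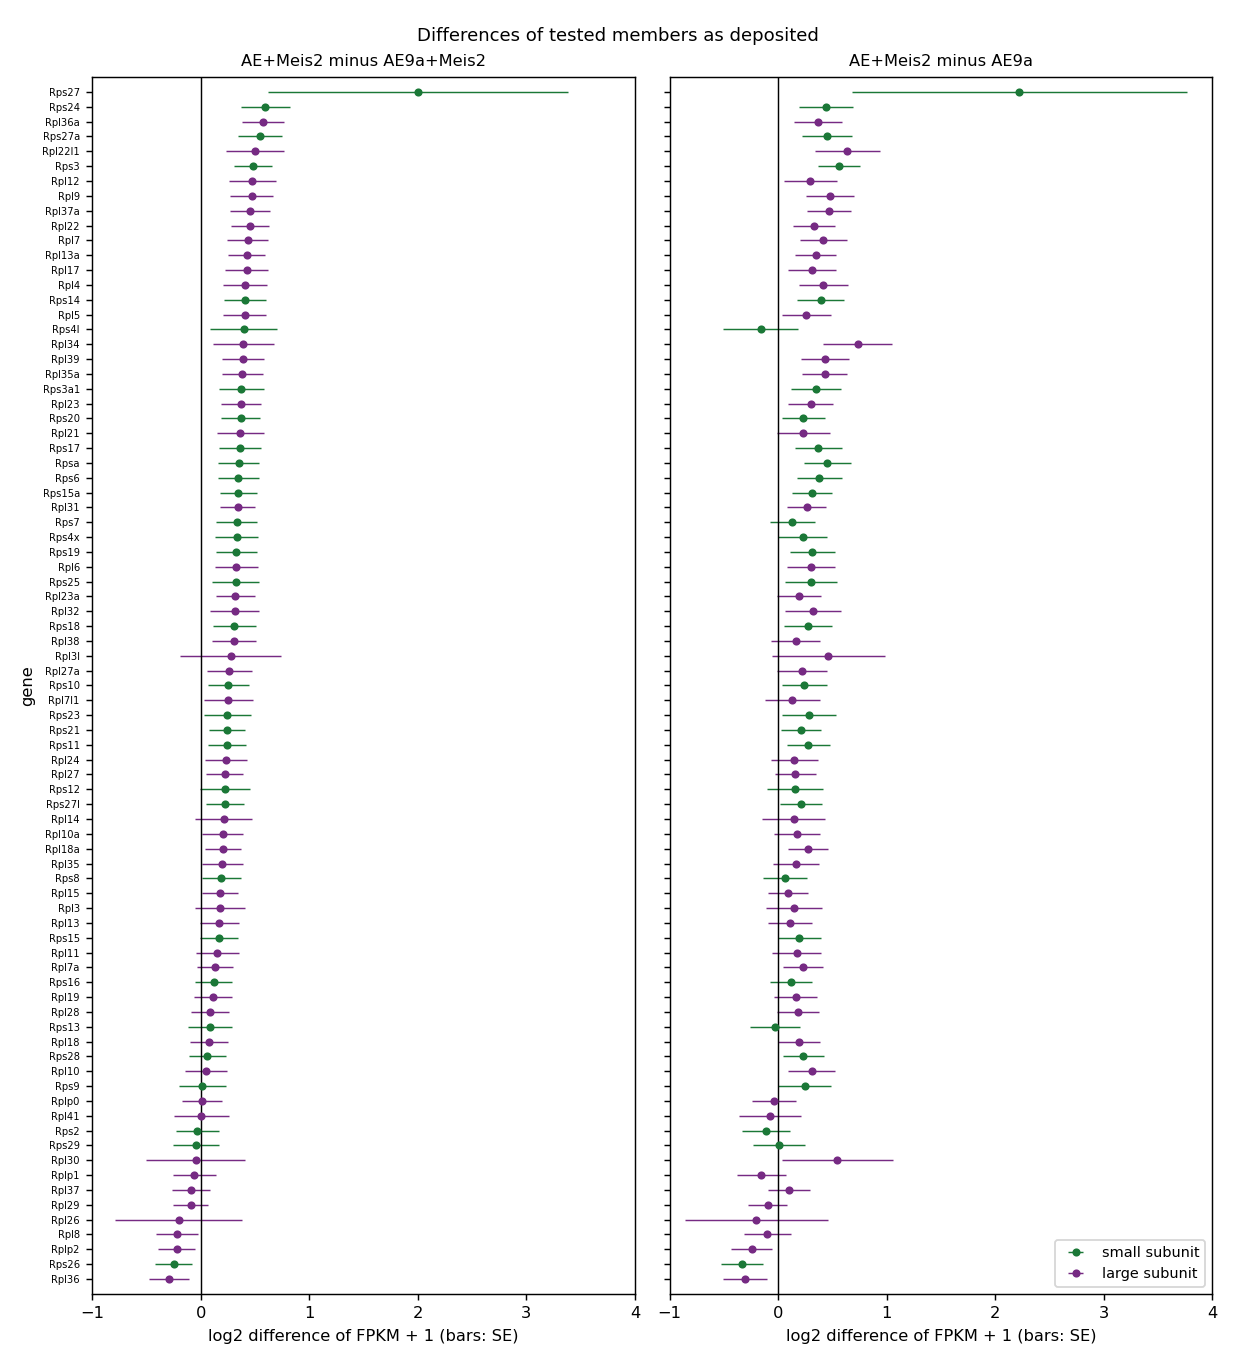
Fitted log2 difference (points) and its SE (bars) of tested members, ordered by the difference between AE+Meis2 and AE9a+Meis2 as deposited. Most of the 82 tested members were above 0 in the fit (71 and 70), which quantile scaling turns to medians below 0, and Rps27 has the widest error.

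The stalk showed a pattern that no common factor per library can make. Rplp0, Rplp1 and Rplp2 form the stalk of the large subunit, which draws elongation factors to the ribosome. Rplp0 was at 1796, 1955 and 1679.7 FPKM (AE+Meis2), 1824, 2006 and 1582 (AE9a+Meis2) and 1850.1 and 1860.4 (AE9a). Rplp1 was at 2481, 2198 and 1788 FPKM (AE+Meis2), 2166, 2387 and 2139.6 (AE9a+Meis2) and 2458 and 2304 (AE9a). Rplp2 was at 849, 984 and 988 FPKM (AE+Meis2), 1097, 1112 and 1075 (AE9a+Meis2) and 1210.1 and 1021 (AE9a). Only Rplp2 separated AE+Meis2 from the other 5 libraries as deposited. Relative to the median of the tested members in the same library, on the log2 scale, Rplp2 was at -0.93, -0.83 and -0.57 (AE+Meis2), -0.25, -0.41 and -0.21 (AE9a+Meis2) and -0.18 and -0.41 (AE9a). On the same relative scale Rplp0 was at 0.15, 0.16 and 0.19 (AE+Meis2), 0.48, 0.44 and 0.35 (AE9a+Meis2) and 0.43 and 0.45 (AE9a). Rplp1 was at 0.62, 0.33 and 0.28 (AE+Meis2), 0.73, 0.69 and 0.78 (AE9a+Meis2) and 0.84 and 0.76 (AE9a). For each of the 3, every AE+Meis2 library was below the other 5. The mean of the 3 was -0.0535, -0.111 and -0.0325 (AE+Meis2), 0.322, 0.237 and 0.308 (AE9a+Meis2) and 0.366 and 0.267 (AE9a).

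On that relative scale, 11 of the 82 members were lower in AE+Meis2 than in all 5 other libraries (among them the 3 stalk genes, Rpl36, Rpl8, Rps2 and Rps26), against 10.3% of all genes tested. Conversely, 4 were higher than in all 5 others (Rpl17, Rpl23, Rpl36a and Rps27a), against 0.597% of all genes. The scale subtracts the median of the members from every gene, which centres the members and not the other genes. Both shares of all genes are thus shaped by the scale, and neither count can be read against them. Neither count says anything particular of the family, and the names were picked by this pattern.

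Ratios within a library show the same unevenness without any scaling. Rps27a over Rplp2 was 2.87, 2.59 and 2.53 (AE+Meis2), 1.61, 1.84 and 1.28 (AE9a+Meis2) and 1.52 and 1.78 (AE9a). Rps24 over Rplp2 was 2.51, 3.04 and 2.18 (AE+Meis2), 1.48, 1.61 and 1.29 (AE9a+Meis2) and 1.61 and 1.57 (AE9a). Rps3 over Rps26 was 0.848, 0.971 and 0.880 (AE+Meis2), 0.633, 0.548 and 0.455 (AE9a+Meis2) and 0.464 and 0.507 (AE9a). In each ratio the 3 AE+Meis2 libraries, including that labelled replicate 1, lay above the other 5, and AE9a+Meis2 and AE9a overlapped. These pairs were chosen after their values were seen and carry no test.

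AE+Meis2 against AE9a shares its AE+Meis2 libraries with the comparison above. As deposited, 29 of 33 small and 41 of 49 large subunit genes were higher in AE+Meis2 (medians 0.24 and 0.22, against 0.055 over all genes, of which 55.9% were higher); quantile scaling gave -0.17 and -0.20, and rescaling without small RNAs gave -0.13 and -0.15 with all genes at -0.30. Among 178 other genes with a mean log2 level above 8, a set picked after the data were seen, the median was 0.22 in this comparison and 0.059 against AE9a+Meis2. The members' median against AE9a was thus that of other abundant genes. Leaving out AE+Meis2 replicate 1 gave subunit medians of 0.25 and 0.22, and without AE9a replicate 1 and AE9a+Meis2 replicate 3 they were 0.26 and 0.26. The groups did not overlap for 46 members higher and 2 lower, against 9.96% and 8.66% of all genes; with quantile scaling 1 was higher and 15 lower, against 7.88% and 9.88%. As deposited but with the library labelled AE+Meis2 replicate 1 left out, 46 were higher and 6 lower, against 17.8% and 14.9%.

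limma called 0 members in this comparison (0.0318% of all genes were called), and only Rps3 had an unadjusted p under 0.05, against 2.95% of all genes higher and 3.03% lower. No member had one without the library labelled AE+Meis2 replicate 1, against 4.27% of all genes higher and 4.34% lower. Without AE+Meis2 replicate 3, 4 members did, all higher, against 3.71% of all genes higher. Without AE9a+Meis2 replicate 3, 2 did, both higher, against 2.56%. Counts are not given without an AE9a replicate, since a lone AE9a library then stands for its group. The Rps3 difference was 0.56 ± 0.19 (SE; limma adjusted p = 0.720), and 0.54 without the library labelled AE+Meis2 replicate 1. Rpl34 had the widest difference of the large subunit, 0.73 ± 0.32, from 287, 222 and 183 FPKM (AE+Meis2), 189.9, 198 and 137 (AE9a+Meis2) and 103 and 179 (AE9a). AE9a replicate 1, in which silent families were listed above 0, held the lowest Rpl34 value; without it the difference was 0.34 ± 0.35, and Rpl34 no longer had the widest difference. The spread of the lone AE9a library left is then taken from the other groups. Rpsa, the laminin receptor as well as a small subunit protein, differed by 0.45 ± 0.21. At the lower end were Rps26 (-0.33 ± 0.19), Rpl36 (-0.31 ± 0.20) and Rplp2 (-0.24 ± 0.19). Their limma adjusted p was 0.950 each, and Rps26 and Rplp2 did not overlap between the groups. Without AE9a replicate 1, Rpl36 differed by -0.13 and Rplp2 by -0.12. All 3 were lower under the 5 scalings.

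AE9a+Meis2 against AE9a asks what Meis2 adds to the truncated fusion. The subunit medians were -0.015 and -0.027, against -0.0011 over all genes, with 32 members higher and 50 lower (49.8% of all genes were higher). After quantile scaling the small subunit median was 0.019. With small RNA entries removed and the rest rescaled, the subunit medians were -0.13 and -0.14, against -0.12 over all genes. Without AE9a+Meis2 replicate 3 and AE9a replicate 1 they were 0.093 and 0.050. limma called 0 members (0.0478% of all genes) and found 0 at an unadjusted p under 0.05, against 1.93% of all genes higher and 1.13% lower. The groups did not overlap for 3 members higher (Rps9, Rps28 and Rpl18) and 1 lower (Rps4l), against 13.1% and 10.7% of all genes. These counts turned on single libraries: 19 were higher without AE9a+Meis2 replicate 3 (23.2% of all genes), and 32 were lower without AE9a+Meis2 replicate 2 (16.3% of all genes). Rps28 was at 2093, 2223 and 2155 FPKM (AE+Meis2), 2105, 2206 and 1919 (AE9a+Meis2) and 1793 and 1881 (AE9a), a difference of 0.17 ± 0.19, which is smaller than its SE. The median SE over members was 0.22 here, and a difference of that size was not detectable with 2 AE9a libraries.

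Base composition went along with the differences among members. Across 79 tested members (without Rps27, and without those under 20 FPKM or with no transcript), Pearson's r between the share of G and C in the coding sequence and the difference was -0.59 for AE+Meis2 against AE9a+Meis2 (Spearman's rho -0.61). It was -0.55 (rho -0.51) against AE9a and 0.079 (rho 0.28) for AE9a+Meis2 against AE9a. Both AE+Meis2 comparisons kept a negative r when the library labelled AE+Meis2 replicate 1 was left out (-0.48 with rho -0.57, and -0.46 with rho -0.46). By subunit, r was -0.59 for 31 small and -0.60 for 48 large subunit genes against AE9a+Meis2, and -0.35 and -0.65 in AE+Meis2 against AE9a. In AE9a+Meis2 against AE9a the small subunit tilted the other way, with an r of 0.47 (rho 0.47), while the large subunit had an r of -0.079 (rho 0.19). The first 2 comparisons share the AE+Meis2 libraries, members share those libraries and overlap in sequence, and no p is given. With Rps27, the 40 members above the median of 52.6% G and C had a median difference from AE9a+Meis2 of 0.16 and the 40 below it 0.35. Rpl22l1 (39.9%), Rps27a (45.9%) and Rps24 (46.1%) were at the low end, and Rplp2 (56.8%) and Rpl36 (61.6%) at the high end. The tilt was not confined to the family. Across 4190 other genes above 20 FPKM, rho with the G and C share of the whole transcript was -0.29, -0.17 and 0.14 in the same order. On that measure rho over the 79 members was -0.54, -0.46 and 0.16. It was thus further from 0 in the members than in the other genes in both AE+Meis2 comparisons. Transcript length (rho 0.20 over 80 members against AE9a+Meis2) and the share of sequence held in common with other genes (rho -0.089) went along less. The part of base composition in the differences was not tested.

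**Figure D4:**
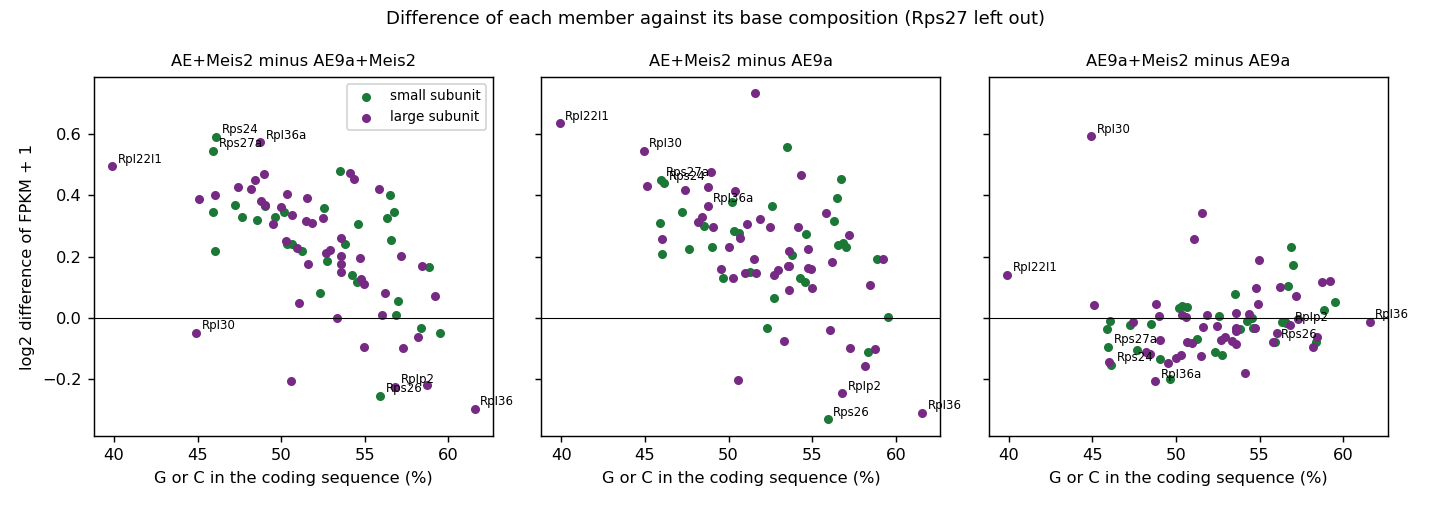
Log2 difference of each member as deposited against the percentage of G and C in its coding sequence, for the 3 comparisons; points are genes, coloured by subunit. In both AE+Meis2 comparisons members of low G and C lie above those of high G and C, a tilt within the family that a factor per library would not remove, while quantile scaling turns the medians below 0; in AE9a+Meis2 against AE9a the small subunit genes tilt the other way (r of 0.47).

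Rps27 varied most of all members outside the near-silent paralogs. Rps27 (chr3:90212667-90213648, GRCm38), which encodes a zinc finger protein of the small subunit, was at 140.1, 332 and 47.1 FPKM (AE+Meis2), 7.30, 70.6 and 58.5 (AE9a+Meis2) and 140.2 and 4.60 (AE9a). The highest library was 72.2-fold above the lowest, all 3 groups overlapped, and the difference from AE9a+Meis2 was 2.00 ± 1.38 (SE; limma adjusted p = 0.792). It ran from 1.01 without AE9a+Meis2 replicate 1 to 2.72 without AE+Meis2 replicate 3. Rps27rt (chr9:114982366-114982739), an intronless copy outside the symbol rule, was at 3612, 4971 and 3356 FPKM (AE+Meis2), 2879, 2771 and 2574 (AE9a+Meis2) and 3186 and 2441 (AE9a). The copy thus held nearly all of the signal: Rps27 made up 0.188 to 6.26% of their sum. The coding sequences of the 2 genes are identical in 252 of 252 bases, and 98.6% of the 50-base stretches of the Rps27 transcript occur in other annotated genes. Rps27l (chr9:66944624-66949522), a paralog induced by p53, is 76.2% identical and was at 264, 189 and 211 FPKM (AE+Meis2), 191, 197 and 178 (AE9a+Meis2) and 183 and 197 (AE9a). It varied by 1.49-fold. The first 90 coding bases (GENCODE M21 on GRCm38) are shown with the bases of Rps27l that differ from Rps27 in capitals, 24 in all.
Rps27: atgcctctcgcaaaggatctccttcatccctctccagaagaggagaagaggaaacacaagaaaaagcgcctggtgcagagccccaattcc
Rps27rt: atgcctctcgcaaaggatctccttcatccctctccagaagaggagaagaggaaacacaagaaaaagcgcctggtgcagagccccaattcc
Rps27l: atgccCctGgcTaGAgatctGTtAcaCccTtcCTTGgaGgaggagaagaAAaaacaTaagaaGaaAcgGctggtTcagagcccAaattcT
Reads of Rps27 and Rps27rt that lie in these bases cannot be told apart by sequence, so their split between the 2 symbols is uncertain, while Rps27l can be told from both. Over all 83 members with a transcript, 80 share at least 1 stretch of 50 bases with another annotated gene and 39 share more than 50% (median 48.5%). Members at low levels, such as Rpl26 (71.3% shared) and Rpl30 (47.8%), are uncertain in the same way, although over 80 members the shared percentage and the mean FPKM had a Pearson's r of only 0.19.

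**Figure D5:**
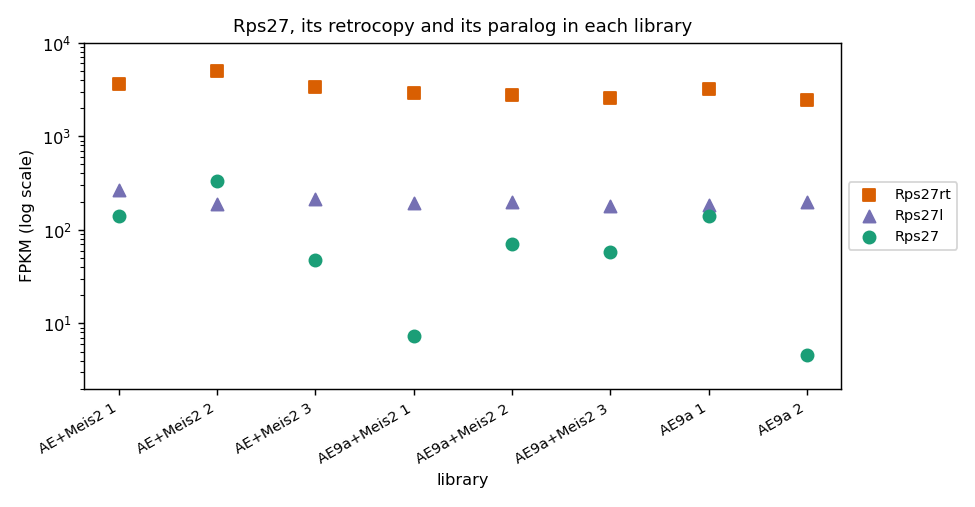
FPKM of Rps27, its intronless copy Rps27rt and its paralog Rps27l in each library, on a log axis. Rps27rt stays between 2441 and 4971 FPKM and Rps27l between 178 and 264, while Rps27 spans 4.60 to 332 within overlapping groups.

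The other paralogs split into expressed and near-silent genes. Rpl22l1, which can take the place of Rpl22 in the large subunit, was at 284, 514 and 274 FPKM (AE+Meis2), 242, 231 and 254 (AE9a+Meis2) and 198 and 244 (AE9a). Rpl22 itself was at 207, 194 and 166 FPKM (AE+Meis2), 127, 162 and 127 (AE9a+Meis2) and 145 and 155 (AE9a). For both, all AE+Meis2 libraries were above the other 5. Rpl22l1 differed by 0.50 ± 0.27 from AE9a+Meis2 and by 0.64 ± 0.30 from AE9a (limma adjusted p = 0.752 and 0.881), and it was higher under all 5 scalings in both. AE+Meis2 replicate 2 carried much of this: without it the differences were 0.20 ± 0.17 and 0.34 ± 0.19. The ratio of Rpl22l1 to Rpl22 was 1.37, 2.65 and 1.65 (AE+Meis2), 1.91, 1.43 and 2.00 (AE9a+Meis2) and 1.37 and 1.58 (AE9a). It was highest in AE+Meis2 replicate 2, and the groups overlapped. Rpl7l1, whose protein acts in ribosome assembly, stayed between 30.1 and 51.5 FPKM. Rpl3l, the paralog of striated muscle, was at 0.369 to 3.94 FPKM. Rps4l was at 0.153 to 1.35 FPKM. Rpl10l, a gene of the testis, and Rpl39l were at 0 to 0.459 and 0 to 0.124 FPKM.

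Among the 17 Diamond-Blackfan anemia genes of the family, median differences were 0.22 against AE9a+Meis2 (14 higher, 3 lower) and 0.19 against AE9a (15 higher, 2 lower), close to those of all members (0.25 and 0.23) and turning with the scaling as theirs do. These medians were 0.14 and 0.12 when the library labelled AE+Meis2 replicate 1 was left out. limma called none; at an unadjusted p under 0.05 Rps24 alone was higher against AE9a+Meis2. Rps19, the gene most often mutated in the disease, was at 1618, 1787 and 1652 FPKM (AE+Meis2), 1306, 1574 and 1177 (AE9a+Meis2) and 1287 and 1422 (AE9a). The AE+Meis2 libraries were the highest 3, by 0.33 ± 0.19 and 0.32 ± 0.21, and the order turned under quantile scaling (-0.073 and -0.084). Rpl5 and Rpl11, which hold back Mdm2 when ribosome assembly fails, differed from AE9a+Meis2 by 0.40 ± 0.20 and 0.15 ± 0.20; without AE9a+Meis2 replicate 3 by 0.26 and 0.041. Rps14 was at 2798, 2579.7 and 2524 FPKM (AE+Meis2), 2099.7, 2238 and 1678 (AE9a+Meis2) and 2049 and 1965 (AE9a), above the other 5 libraries in AE+Meis2 as deposited and not after quantile scaling (-0.078 and -0.043).

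Genes around the family were read beside it. Of 25 other translation factors and TOP genes, 18 were higher in AE+Meis2 in the comparison with AE9a+Meis2 (median 0.19) and 19 in that with AE9a (median 0.16). In this list limma called Eef1a1 alone, which was listed at 6376, 8302 and 5756 FPKM (AE+Meis2), 0, 0 and 0 (AE9a+Meis2) and 6164 and 5898 (AE9a). It is thus listed at 0 in 1 whole group, and no fold is given. Mitochondrial ribosomal proteins (77 genes), made for another ribosome, had medians of -0.029 and 0.019 in the same 2 comparisons, with 35 and 40 higher and 0 called. Ribosomal protein pseudogenes (7 genes) were at 0.23 and 0.22, near the medians of the family, whose reads they can share. snoRNA host genes (6), which also carry TOP tracts, had medians of 0.40 and 0.29 with 0 called; Gas5 differed by 0.79 and 0.76. RNA polymerase I genes (11), which make the rRNA, had medians of 0.14 and 0.0050 with 0 called. Myc, a driver of ribosome production, was lower by 0.43 and 0.67 in AE+Meis2, neither called. S6 kinases (9 tested) had medians of 0.034 and -0.020 with 0 called. On leaving out the library labelled AE+Meis2 replicate 1, medians were 0.18 and 0.12 for the translation and TOP genes, -0.12 and -0.077 for the mitochondrial ribosomal proteins, 0.23 and 0.23 for the pseudogenes, 0.25 and 0.16 for the snoRNA host genes, 0.15 and 0.086 for RNA polymerase I and -0.0087 and -0.063 for the S6 kinases. All these medians come from the deposited scale and carry its limits.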

How the data were processed

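The authors deposited 1 table of FPKM for 8 libraries of bone marrow RNA; they were made with Cufflinks, Cuffdiff and TopHat on mm10, per the submitters' processing notes, with versions, settings, annotation and library scaling not given in the sources used here. The labels name a TruSeq kit after TRIzol extraction and do not say whether counting used strand. FPKM holds no read counts, and the read depth is unknown: ratios of low values between libraries did not settle on 1 step (the commonest ratio held 3.01 to 9.16% of genes), so no counts were recovered and no count test was run.

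Sample titles gave the groups and the replicate numbers. The filter kept 12565 genes that reached 1 FPKM in 2 or more libraries, tested as log2(FPKM + 1), with a pseudocount of 1, by limma 3.58.1 (R 4.3.3) with an intensity trend, 1 coefficient per group over all 8 libraries and no replicate block, which leaves 5 residual degrees of freedom. Benjamini-Hochberg adjustment ran over all genes tested, with a threshold of 0.05. The log2(FPKM + 1) scale understates changes of low genes. The members and lists were chosen with earlier results of these data known, so no p is given for a list. Named members are those past the threshold, per subunit the 3 widest differences each way and the 3 highest and lowest by level, the paralogs with their parents, the stalk genes, Rpsa, Rps27a, Rps14 and the Diamond-Blackfan anemia genes. A pair of genes is not reported here, of which 1 is a member and is left out of the plot of differences by gene.

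All 84 members matched RefSeq (GRCm38.p6) by symbol, and 83 a GENCODE M21 transcript; sequences were handled with Biopython 1.88. The same fit was tested on simulated data with 12565 genes. Genes shifted by 0.5 on the log2 scale were recovered in 0% of cases in each comparison. Those shifted by 1 were recovered in 4% of cases for AE9a+Meis2 against AE9a, in 24% for AE+Meis2 against AE9a+Meis2 and in 12% for AE+Meis2 against AE9a, and those shifted by 2 in 72%, 84% and 66% in the same order. Alternatives covered the pseudocount, the filter on low values, 4 other scalings, the replicate block, robust moderation, no trend, the libraries entering the fit and leaving out libraries.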

Additional observations from a re-analysis of the deposited data

How the results depend on the processing

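No ribosomal protein gene was called in any comparison under any setting run. The subunit medians turned with the scaling (small, then large subunit). Quantile scaling gave -0.14 and -0.10 for AE+Meis2 against AE9a+Meis2, -0.17 and -0.20 for AE+Meis2 against AE9a, and 0.019 for the small subunit in AE9a+Meis2 against AE9a. Removing small RNA entries and rescaling gave 0.048 and -0.029 in the first and -0.13 and -0.15 in the second, while the median of all genes moved to -0.20 and -0.30. In AE9a+Meis2 against AE9a that scaling gave -0.13 and -0.14, with all genes at -0.12. Median-of-ratios scaling, and scaling each library to the median of all genes tested, which was added after the data were seen, kept the direction in all 3 comparisons, with 0.14 to 0.27 in both AE+Meis2 comparisons. For AE9a+Meis2 against AE9a, medians ran from -0.11 to 0.055 (small) and from -0.11 to 0.044 (large) on leaving out 1 library, with sign changes without AE9a+Meis2 replicate 3 and, for the small subunit, without AE9a replicate 1; without both libraries they were 0.093 and 0.050. Leaving out 1 library gave 0.22 to 0.35 and 0.14 to 0.31 for AE+Meis2 against AE9a+Meis2, the lowest without AE9a+Meis2 replicate 3, and 0.20 to 0.26 and 0.21 to 0.27 against AE9a. The cause of these changes was not tested. With the replicate block, AE9a+Meis2 against AE9a gave 0.040 and 0.031, and the members called stayed at 0 in each comparison. All genes called fell from 6 to 2 in AE9a+Meis2 against AE9a and from 4 to 0 in AE+Meis2 against AE9a. In the latter, members with an unadjusted p under 0.05 rose from 1 to 4 with the block and to 9 with robust moderation. They numbered 5 with a filter of 5 FPKM in 3 libraries and 0 with no filter. Shares of all genes were not computed under these settings, so these counts cannot be read as a result about the members. Same-numbered libraries correlated by -0.025 to 0.13 over 7 pairs of libraries, so the numbers were not taken as pairs. The read depth is unknown, and members at low FPKM or with shared sequence are the least certain.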

Other observations

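Growth signal genes that bear on ribosome production were also measured (10 tested of 11 listed), on the deposited scale. Their median differences were -0.032 for AE+Meis2 against AE9a+Meis2, -0.049 for AE+Meis2 against AE9a and 0.11 for AE9a+Meis2 against AE9a, and limma called 0 in each; at an unadjusted p under 0.05 there were 0 as well. Mtor, the kinase that drives translation of TOP mRNAs, differed by -0.023, -0.081 and -0.058 in that order, and Larp1, which binds the TOP tract, by -0.066, -0.016 and 0.050. Cdkn1a, a p53 target, differed by -1.12 ± 0.65 (SE), -0.41 ± 0.73 and 0.70 ± 0.73, and Trp53 by 0.40 ± 0.59, 0.54 ± 0.66 and 0.15 ± 0.66.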
